A study of Homo sapiens with 16 samples.

Results

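The genes examined here encode 10 proteins that remove the 5′ cap from mRNA or degrade RNA after its cap is gone. They are the decapping enzyme DCP2, its partners DCP1A and DCP1B, the enhancers of decapping EDC3 and EDC4, the scaffold PATL1, the helicase DDX6, the exonuclease XRN1, the scavenger enzyme DCPS and the nudix hydrolase NUDT16. They were chosen by name, as the core set of 5′ decay, and found in the count tables by Ensembl identifier. All 10 matched 1 identifier each among 60107 gene entries.

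Decapping is the committed step of 5′ to 3′ mRNA decay. DCP2 cuts the cap and needs the enhancers and scaffolds for full activity in cells, and the exposed 5′ monophosphate end is then degraded by XRN1. DCPS hydrolyzes the short capped fragment that is left when an mRNA is degraded from its 3′ end, and NUDT16 is a second hydrolase able to remove caps. In cytoplasmic recapping, uncapped mRNAs regain a cap, and this includes methylation of the added guanosine by RNMT.

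The libraries were made from cytoplasmic RNA of U2OS-TR, human osteosarcoma cells that express the tetracycline repressor. The clonal line U2OS-TR/ΔN-RNMT carries ΔN-RNMT, a truncated RNMT with a mutated methyl donor site that lacks activity and is held in the cytoplasm by a nuclear export sequence. Its promoter is under tetracycline operator control, and G418 was used for selection. This line gave 5 uninduced libraries and 5 libraries from cells induced with doxycycline. The parental line, with the repressor but without the transgene, gave 3 untreated and 3 doxycycline-treated libraries. Cells were split 48 h before doxycycline and harvested 24 h after it. The protocol attached to every library lists 1 μg/ml doxycycline, and the treated and untreated groups follow the library titles. The transgene line is 1 clone, and its libraries were sequenced at a different facility and on a different instrument from those of the parental line. Differences in level between the lines and between the sequencing runs cannot be told apart.

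QuantSeq REV gives sequence tags next to the poly(A) tail, so a tag count follows the number of mRNA molecules and was not divided by transcript length. The libraries of the transgene line held 12527183 to 23251834 counts on genes, and those of the parental line 1473286 to 3214808. RNMT was used as a check of induction, and tags of the transgene and of the endogenous gene were not told apart. It was at 55.5 to 112 CPM (counts scaled by library size) in uninduced and 265 to 457 CPM in induced libraries, without overlap. RNMT rose 4.66-fold (log2 2.22, adjusted P = 0.00806 by edgeR's quasi-likelihood test). In parental libraries RNMT was between 54.8 and 121 CPM. Of the 7 genes used as marks of this cell line, VIM, SPARC, COL1A1 and RUNX2 were detected in every group. BGLAP had no tag in any library, COL1A2 had 2 tags in induced libraries and no tag in the other groups, and ALPL was at most 1.20 CPM. The 6 marks of other cell types summed to at most 17.0 CPM in the transgene line and 10.4 CPM in the parental line, and ALB and CD3E were at 0 throughout. Among them, the epithelial mark EPCAM had means of 7.84 CPM in uninduced and 12.0 CPM in induced libraries, beside 7.68 and 17.3 CPM for RUNX2. VIM and RUNX2 were higher in induced libraries by 1.44 and 1.16 on the log2 scale, and their part in the results below was not tested.

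The study dealt with the 5′ terminal oligopyrimidine (TOP) sequence at the start of an mRNA. It took its TOP mRNAs from a published list based on recovery with the protein LARP1, and that list was not used here. A C followed by at least 4 pyrimidines was the rule applied here. The starts of 9 of the 10 members, all except XRN1, were therefore read from RefSeq on GRCh38.p14. Each line gives 20 bases before the start in lower case and the first 10 transcribed bases in capitals, on the strand of the gene. Of the members that passed the test in induced cells, PATL1 and EDC3 are shown. The others shown are DCP2, the catalytic subunit, and NUDT16, which has the longest opening run of pyrimidines of the 9, with 4.
PATL1 (chr11:59669028-59669057, reverse): gcctgaggcgcgcctgcgcaCGTCCCCACG
EDC3 (chr15:74696015-74696044, reverse): cacggtggtggcgtggagacGTGGGGGCGC
DCP2 (chr5:112976778-112976807, forward): gggtcccgccccttccccttCTCGTCTCCG
NUDT16 (chr3:131381754-131381783, forward): cgcccctctgcccattgggcCTTCGGGACA
None of these 9 genes has a C followed by at least 4 pyrimidines at its RefSeq start. Of 35116 annotated starts, 1429 (4.07%) do. The letters describe the annotated start, and the start used in these cells was not measured here.

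In the transgene line, 9 of the 10 genes passed the expression filter, a mean above 20 scaled counts over the 10 libraries, and were tested with edgeR's quasi-likelihood test. EDC4 did not pass. XRN1 and PATL1 rose and EDC3 fell after induction of ΔN-RNMT. The 3 called genes are 33.3% of the 9, against 39.8% of all 13038 genes tested, so the share of members called was close to the background. By direction, 20.0% of all tested genes were called higher and 19.8% lower. The median log2 fold change was 0.20 over the 9 members and 0.04 over all tested genes. In bulk RNA, a change in the number of cells that express a gene and a change in RNA per cell cannot be told apart.

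XRN1, the cytoplasmic exonuclease that degrades decapped mRNA from its 5′ end, is encoded on the reverse strand of chromosome 3 (GRCh38, from 142306607 to 142448062) with 41 exons in its canonical transcript. Uninduced libraries 1 to 5 had 8.31, 7.29, 8.82, 7.53 and 10.3 CPM of XRN1, from 125 to 238 tags. Induced libraries 1 to 5 had 13.0, 13.8, 12.7, 15.3 and 12.6 CPM of XRN1, from 175 to 332 tags. Every induced library lay above every uninduced library. Groups without overlap were found for 7.30% of all tested genes, 3.08% with induced libraries higher and 4.22% with them lower, and for 2 of the 9 members, XRN1 and EDC3. The mean was 8.45 ± 1.20 CPM (SD, n = 5) in uninduced and 13.5 ± 1.12 CPM (SD, n = 5) in induced cells. XRN1 rose 1.59-fold, with a log2 fold change of 0.67 (standard error 0.15, 95% confidence interval 0.35 to 0.99, adjusted P = 0.0175). It passed the test with any single library removed, where its log2 fold change ran from 0.61 to 0.74 and adjusted P between 0.00133 and 0.0495. Adjusted P depends on all genes, and the number of genes called in these fits ran from 1869 to 7604.

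DCP2, the catalytic subunit, had about the same level with and without ΔN-RNMT. Uninduced libraries 1 to 5 had 38.8, 36.1, 35.8, 40.03 and 36.1 CPM of DCP2. Induced libraries 1 to 5 had 42.0, 39.9, 40.5, 40.1 and 31.6 CPM of DCP2. The groups overlapped, and induced library 5 was the lowest of all 10. The log2 fold change of DCP2 was 0.06 (standard error 0.13, 95% confidence interval -0.23 to 0.34, adjusted P = 0.737). This was the narrowest interval of the 9 genes. Over its last 300 nt, DCP2 shares 90 nt with an exon of MCC on the opposite strand, and MCC was called higher by 0.84 on the log2 scale. Whether strand was used in the counting is not given in the sources used here, and without it tags of DCP2 and MCC could not be told apart.

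DCP1A and DCP1B bind DCP2 and activate it. DCP1A had 6.64, 8.81, 8.93, 6.04 and 6.88 CPM in uninduced libraries 1 to 5 and 9.38, 6.95, 9.37, 9.20 and 12.0 CPM in induced libraries 1 to 5. Induced library 2 lay inside the uninduced range and the other 4 lay above it. For DCP1A the log2 fold change was 0.33 (standard error 0.18, 95% confidence interval -0.07 to 0.73, adjusted P = 0.161). With libraries scaled by total counts alone, which moves the median of all genes to 0.28, DCP1A passed the test at 0.58 (adjusted P = 0.0317). DCP1B was between 13.4 and 22.4 CPM in uninduced and between 20.6 and 24.1 CPM in induced libraries, and its log2 fold change was 0.20 (95% confidence interval -0.15 to 0.55, adjusted P = 0.314). DCP1B was more abundant than DCP1A in all 10 libraries of this line.

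EDC4, the large scaffold that binds DCP2 and DCP1A, was almost without tags. Uninduced libraries 1 to 5 had 5, 0, 5, 3 and 0 tags of EDC4, induced libraries had 0, 2, 0, 2 and 3, and the 6 parental libraries had none, which allows up to 0.933 to 2.04 CPM by counting error alone. The annotation bears on this count. The last exon of EDC4, on chromosome 16 from 67883956 to 67884499 on the forward strand, lies wholly inside an exon of ENSG00000263126, a non-coding gene on the same strand. Tags in both genes would be set aside as ambiguous by a counter of this kind, and this was not tested because tag positions are not used here. No statement on the level of EDC4 mRNA can be drawn from these counts.

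EDC3, which binds DCP2 and promotes its activity, fell after induction. Uninduced libraries 1 to 5 had 10.1, 12.0, 12.6, 9.51 and 8.18 CPM of EDC3. Induced libraries 1 to 5 had 4.46, 7.98, 4.81, 5.66 and 8.18 CPM of EDC3. The groups did not overlap, but uninduced library 5 and induced library 5 differed by less than 0.01 CPM. With counts divided by library totals only, the groups overlapped, with 8.13 to 10.8 CPM in uninduced and 4.79 to 9.35 CPM in induced libraries. EDC3 fell 1.68-fold, with a log2 fold change of -0.75 (standard error 0.21, 95% confidence interval -1.22 to -0.28, adjusted P = 0.0226). The call was lost without uninduced library 2 or induced library 1, 3 or 4, where adjusted P reached 0.0583. The log2 fold change stayed between -0.86 and -0.65 in the 10 fits with a library left out. Total count scaling gave -0.50 (adjusted P = 0.0661).

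**Figure D1:**
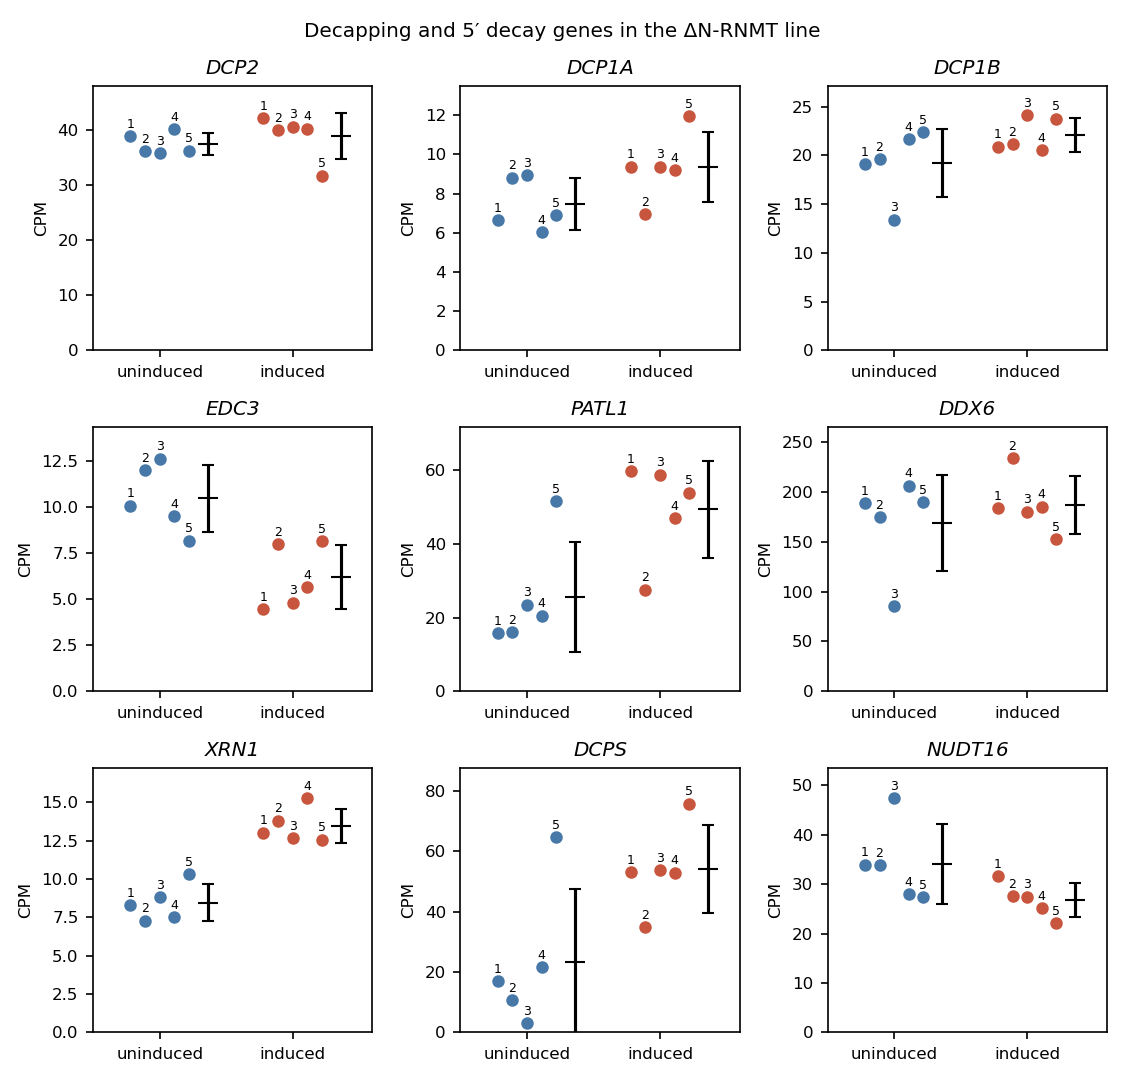
Counts scaled by library size (CPM) of the 9 tested genes in the ΔN-RNMT line. Points are single libraries with their replicate number, blue for 5 uninduced and red for 5 induced libraries; the horizontal mark and bar give the mean and SD, and the bar of DCPS is cut at 0. Only XRN1 and EDC3 have groups that do not overlap, and for PATL1 and DCPS uninduced library 5 sits among the induced libraries.

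PATL1 and DDX6 join the decapping enzyme to translationally silent mRNA. PATL1, the human Pat1 scaffold that also binds the LSM1 to LSM7 ring, had 15.9, 16.04, 23.5, 20.5 and 51.6 CPM in uninduced libraries 1 to 5 and 59.6, 27.6, 58.7, 46.9 and 53.8 CPM in induced libraries 1 to 5. Uninduced library 5 lay within the induced range, and induced library 2 lay between the remaining 4 libraries of each group. PATL1 rose 1.93-fold, with a log2 fold change of 0.95 (standard error 0.34, 95% confidence interval 0.21 to 1.69, adjusted P = 0.0440). The call was lost in 8 of 10 fits with a library left out, with adjusted P up to 0.0991. It held only without uninduced library 5 or induced library 2. Without uninduced library 5 the log2 fold change was 1.37.

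DDX6, a DEAD-box helicase that represses translation and is abundant in P-bodies, was the most abundant of the 10 mRNAs. It had 188, 174, 85.4, 206 and 190 CPM in uninduced libraries 1 to 5 and 183, 233, 180, 185 and 153 CPM in induced libraries 1 to 5. Uninduced library 3 was far below the remaining 9. DDX6 had a log2 fold change of 0.15 (95% confidence interval -0.34 to 0.64, adjusted P = 0.604), and without uninduced library 3 it was -0.04.

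DCPS varied more among the uninduced libraries, relative to its mean, than any other tested member. It had 17.1, 10.7, 3.05, 21.7 and 64.8 CPM in uninduced libraries 1 to 5 and 53.1, 35.0, 53.7, 52.9 and 75.9 CPM in induced libraries 1 to 5. Uninduced library 5 exceeded all induced libraries except induced library 5, whereas uninduced libraries 1 to 4 lay below the whole induced range. The mean was 23.5 ± 24.2 CPM (SD, n = 5) in uninduced and 54.1 ± 14.5 CPM (SD, n = 5) in induced cells. The log2 fold change of DCPS, 1.20, was the largest of the 9, but its error was also the largest (standard error 0.59, 95% confidence interval -0.08 to 2.48, adjusted P = 0.113). Without uninduced library 5 it was 2.02 and passed the test (adjusted P = 0.00191).

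NUDT16 was the other member with a negative log2 fold change. It had 34.0, 33.8, 47.4, 28.0 and 27.3 CPM in uninduced libraries 1 to 5 and 31.6, 27.5, 27.5, 25.1 and 22.1 CPM in induced libraries 1 to 5. The groups overlapped, and uninduced library 3 was the highest. For NUDT16 the log2 fold change was -0.35 (standard error 0.18, 95% confidence interval -0.74 to 0.04, adjusted P = 0.129).

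The order of tag levels in uninduced cells was DDX6 (mean 169 CPM), DCP2 (37.4), NUDT16 (34.1), PATL1 (25.5), DCPS (23.5), DCP1B (19.2), EDC3 (10.5), XRN1 (8.45) and DCP1A (7.46). The ranges of neighbours did not overlap between DDX6 and DCP2 or between DCP1B and EDC3, and overlapped for all other neighbours. In induced cells DCPS (54.1 CPM) and PATL1 (49.3) stood next, with DCP2 (38.8), NUDT16 (26.8), DCP1B (22.1), XRN1 (13.5), DCP1A (9.37) and EDC3 (6.22) after them. XRN1 thus lay below EDC3 in uninduced cells, where their ranges overlapped, and above it in induced cells. The 10 genes together took 335 ± 65.04 CPM (SD, n = 5) in uninduced and 407 ± 10.1 CPM (SD, n = 5) in induced libraries. The sums overlapped, at 239.2 to 417.40 CPM in uninduced and 392.6 to 417.44 CPM in induced libraries, and their difference was not tested. DDX6 made up between 35.7% and 57.04% of that sum in the 10 libraries. Between the group means, DDX6 went from 169 to 187 CPM, DCPS from 23.5 to 54.1 CPM and PATL1 from 25.5 to 49.3 CPM.

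Doxycycline by itself was examined in parental cells. None of the 9 tested members was called, as was the case for all genes (0.00% of 9124 with edgeR, where 267 had an unadjusted P below 0.05; DESeq2 called 1 gene and none of the members). Their log2 fold changes had adjusted P = 0.997 throughout. The median was -0.15 over the 9 genes and -0.01 over all genes, and 7 of 9 were negative. The libraries were shallow, and the 95% confidence intervals were wide enough to hold the changes measured in the transgene line for XRN1, PATL1 and EDC3. MALAT1 and NEAT1, both nuclear RNAs, summed to 457 to 1618 CPM in untreated and 261 to 441 CPM in doxycycline-treated parental libraries, without overlap, and to 734 to 928 CPM in uninduced and 490 to 893 CPM in induced libraries. By edgeR's quasi-likelihood test MALAT1 had a log2 difference of -2.57 in parental cells (adjusted P = 0.997) and 0.03 in the transgene line (adjusted P = 0.927), and the response differed between the lines by 2.37 (adjusted P = 0.0405). NEAT1 was called lower in induced cells (-0.44, adjusted P = 0.0410). The part of these RNAs in the results was not tested.

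XRN1 had 15.6, 10.1 and 8.47 CPM in untreated libraries 1 to 3, from 26, 17 and 29 tags. It had 8.71, 11.7 and 4.77 CPM in doxycycline libraries 1 to 3, from 25, 30 and 6 tags. The groups overlapped, and the log2 fold change was -0.40 (95% confidence interval -1.56 to 0.76). With so few tags, XRN1 was just above the filter and fell below it in 4 of 6 fits with a library left out.

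DCP2 was the 1 member whose parental groups did not overlap, which was the case for 9.52% of all tested genes (4.87% higher and 4.66% lower with doxycycline). It had 95.3, 54.1 and 59.9 CPM in untreated libraries 1 to 3 and 37.6, 49.7 and 38.1 CPM in doxycycline libraries 1 to 3. The log2 fold change was -0.73 (95% confidence interval -1.60 to 0.14), with an unadjusted P of 0.0901 from the edgeR fit. EDC3 had 27.6, 15.5 and 20.4 CPM untreated and 16.4, 4.27 and 23.8 CPM with doxycycline, for a log2 fold change of -0.54 (95% confidence interval -1.87 to 0.79). PATL1 had 61.8, 63.6 and 72.1 CPM untreated and 66.5, 103 and 18.3 CPM with doxycycline, for a log2 fold change of -0.06 (95% confidence interval -1.24 to 1.12). DCPS ranged from 11.4 to 69.0 CPM in untreated libraries alone. DDX6 was steady at 206 to 295 CPM untreated and 222 to 239 CPM with doxycycline. DCP1A was between 20.7 and 74.6 CPM with doxycycline and between 28.5 and 35.97 CPM without it.

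**Figure D2:**
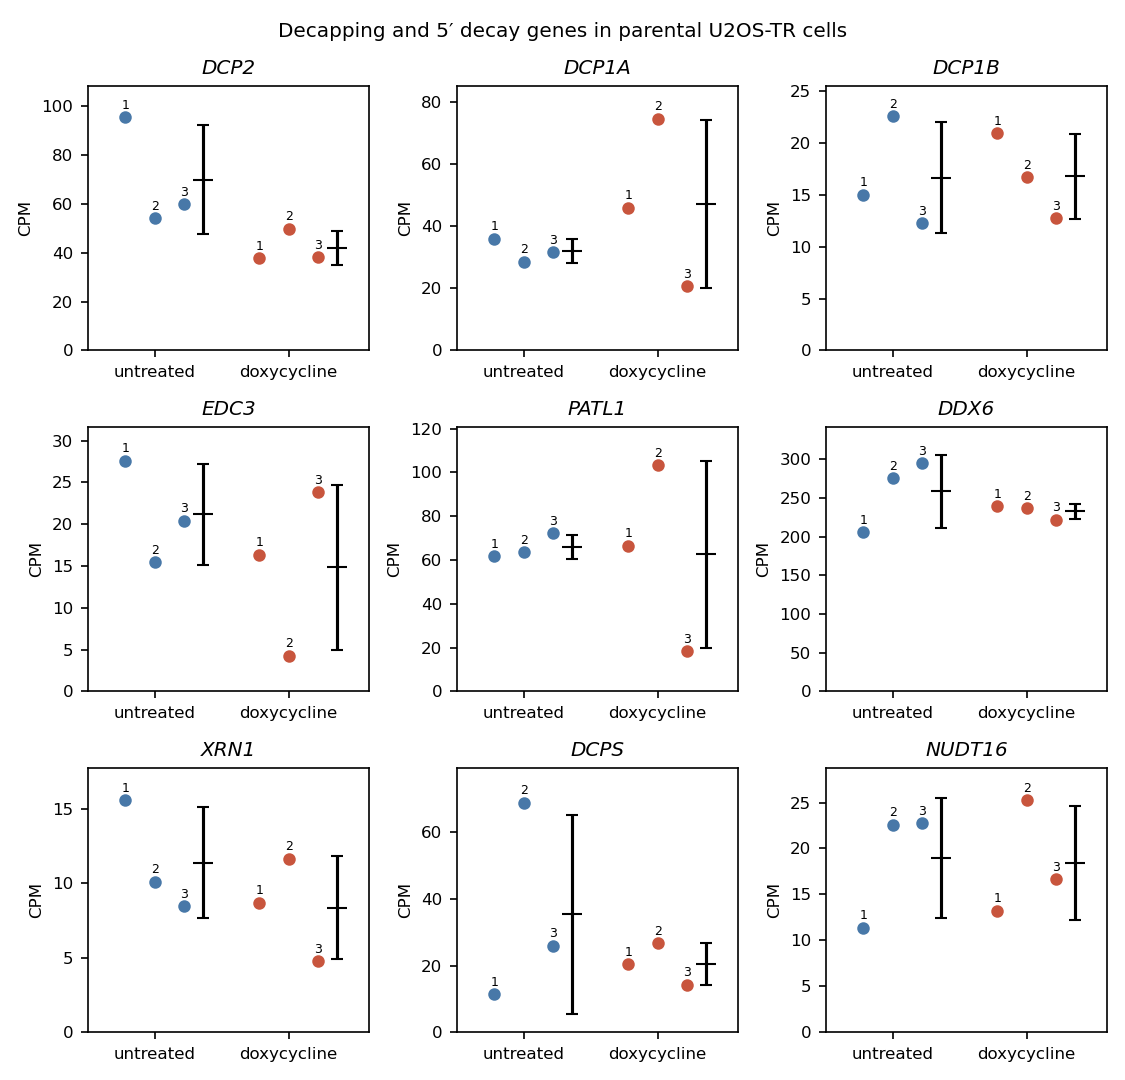
Counts scaled by library size (CPM) of the same 9 genes in parental U2OS-TR cells. Points are single libraries with their replicate number, blue for 3 untreated and red for 3 doxycycline-treated libraries, with mean and SD beside them; only for DCP2 do the groups not overlap.

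The response in the transgene line was then compared with that in the parental line in 1 model of all 16 libraries. None of the 9 members was called, against 2.98% of 12265 genes tested (0.775% higher and 2.20% lower). The call for XRN1, PATL1 or EDC3 in the transgene line is therefore not shown to differ from the response of parental cells. The largest differences of log2 fold change were 1.80 for DCPS (95% confidence interval -0.15 to 3.75, adjusted P = 0.225), 0.83 for XRN1 (0.02 to 1.65, adjusted P = 0.183) and 0.81 for PATL1 (-0.45 to 2.07, adjusted P = 0.394). XRN1 had the smallest unadjusted P, 0.0459 from the edgeR fit. For EDC3 the difference was -0.42 (95% confidence interval -1.62 to 0.78, adjusted P = 0.663), with log2 fold changes of -0.75 and -0.54 in the separate fits. The separate fits scaled each line by itself, so their values do not subtract to the differences given here. The median difference over all tested genes was -0.09. For DCP1B and DDX6 the differences were -0.06 and 0.08.

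**Figure D3:**
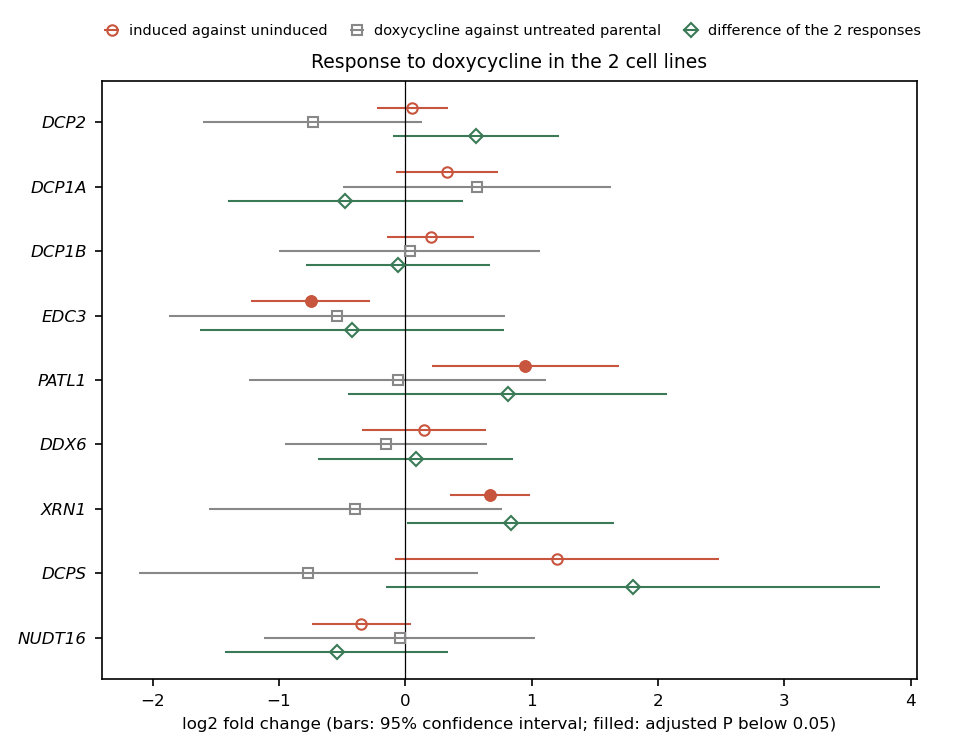
Log2 fold changes of the 9 genes with 95% confidence intervals for induced against uninduced cells (red circles), doxycycline against untreated parental cells (gray squares) and the difference of the responses (green diamonds). Filled symbols had an adjusted P below 0.05; these are XRN1 and PATL1 above 0 and EDC3 below 0, all in the transgene line.

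The change of a gene with induction went with the GC content of its transcript across all tested genes. Genes under 40% GC had a median log2 fold change of 0.47, and 39.4% of them were called higher. Genes with 60% GC or more had a median of -0.49, and 42.7% of them were called lower. XRN1 and DCP2 have the lowest GC content of the 10 members, 37.1% for both, and transcripts of 10079 and 10110 nt, and 5.86% and 5.88% of tested genes lie below them in GC content. DDX6 has 39.98% GC, DCP1A 43.8%, PATL1 46.6%, NUDT16 48.4%, DCP1B 50.7%, DCPS 52.3% and EDC3 54.0%.

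With offsets that remove the smooth trend of counts on GC content from each library, the log2 fold change of XRN1 was 0.18 (adjusted P = 0.325) and no longer passed the test. That of DCP2 turned to -0.45 and passed the test (adjusted P = 0.0420), and DDX6 turned to -0.23 (adjusted P = 0.418). EDC3 kept its call at -0.59 (adjusted P = 0.0411), and PATL1 had 0.82 (adjusted P = 0.0644). The offsets depend on GC content alone, so they shift XRN1 and DCP2, which are matched in GC content, by nearly the same amount. The difference between these genes, with XRN1 the higher in log2 fold change, therefore stays similar by construction, and it was not tested. The offsets remove any change that goes with GC content, technical or not, and which of these applies was not tested.

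**Figure D4:**
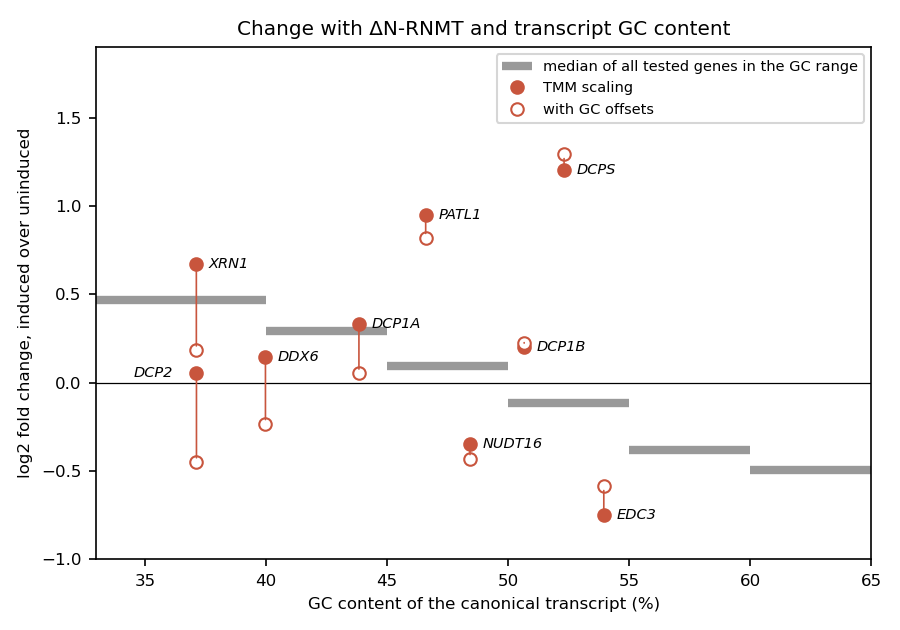
Log2 fold change of the 9 genes, induced over uninduced, against the GC content of the canonical transcript. Filled circles are the TMM-scaled fit, open circles the fit with GC offsets, and gray bars the median of all tested genes in each GC range, which runs from 0.47 to -0.49. XRN1 and DCP2 move down by about the median of genes with their GC content, which follows from how the offsets are made. EDC3 stays below 0.

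The genes around the decapping complex were examined as 3 lists. Of 14 decapping cofactors, 13 were tested, and 7 rose and none fell (53.8% called, against 39.8% of all genes). The median log2 fold change was 0.51. PNRC1 and PNRC2, which bind DCP1A and recruit the decapping enzyme, rose by 2.12 (standard error 0.57, adjusted P = 0.0192) and 2.13 (standard error 0.46, adjusted P = 0.0175) on the log2 scale. PNRC2 had 4.46, 4.26, 2.55, 4.39 and 12.1 CPM in uninduced libraries 1 to 5 and 32.4, 7.42, 30.5, 26.7 and 25.1 CPM in induced libraries 1 to 5. Of the ring that binds the 3′ end of deadenylated mRNA, LSM6 (1.72), LSM1 (0.75) and LSM5 (0.68) rose, whereas LSM2 (0.03), LSM3 (-0.11), LSM4 (-0.28) and LSM7 (0.07) were not called. The ring thus had 3 subunit mRNAs called and 4 not called, which is close to the share of all genes called (39.8%). The groups of LSM4 did not overlap, with all induced libraries lower (adjusted P = 0.0734 by the edgeR test). Groups without overlap and lower were found for 4.22% of all tested genes. With GC offsets LSM6 kept its call (1.32, adjusted P = 0.0274), whereas LSM5, at 35.7% GC, had 0.14 (adjusted P = 0.531) and LSM1 0.56 (adjusted P = 0.0662), and both lost their calls. LSM14A (0.98) and LSM14B (0.51), which bind DDX6 and repress translation, also rose. EIF4ENIF1, the eIF4E transporter that links DDX6 to the cap-binding protein, had -0.01 (adjusted P = 0.938) and NBDY, a small protein that binds EDC4, -0.06.

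No call in this list was lost on leaving out uninduced library 5 or induced library 2, which bordered on the other group. Uninduced library 5 lay within the induced range for 10 of 13 cofactors and 6 of 9 members, and induced library 2 lay within the uninduced range for 12 of 13 cofactors and 6 of 9 members. XRN1 and EDC3 were in neither count. The same counts over all tested genes were not made, so these are not shown to be particular to the decapping genes. Over all genes, 7604 were called without uninduced library 5 and 6353 without induced library 2, against 5183 with all libraries. RNMT was at 112 CPM in uninduced library 5, against 55.5 to 74.4 CPM in uninduced libraries 1 to 4, and at 360 CPM in induced library 2. The part of these libraries in the results was tested only by leaving each out. LSM6, LSM14A, PNRC1 and PNRC2 passed in each of the 10 such fits. LSM1 and LSM5 lost their calls in 8 of them and LSM14B in 7, with adjusted P up to 0.0970. All 3 kept their calls without uninduced library 5 and without induced library 2.

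Of 9 other cap hydrolases and 5′ exonucleases, 8 were tested and 1 was called (12.5%, against 39.8% of all tested genes). The median log2 fold change was -0.02. DXO, which removes incompletely methylated and noncanonical caps and degrades the RNA behind them, fell in induced cells (log2 fold change -0.74 with standard error 0.18, adjusted P = 0.0175). DXO had 16.3, 17.5, 16.8, 15.4 and 11.3 CPM in uninduced libraries 1 to 5 and 8.26, 12.3, 8.10, 8.64 and 9.005 CPM in induced libraries 1 to 5. Induced library 2 lay above uninduced library 5, and all other induced libraries lay below all uninduced ones. With GC offsets DXO had -0.41 (adjusted P = 0.0424). XRN2, the nuclear exonuclease related to XRN1, had -0.37 (95% confidence interval -0.96 to 0.22, adjusted P = 0.272), opposite in sign to XRN1. NUDT3, NUDT2, NUDT12, NUDT17 and NUDT16L1 were not called, with log2 fold changes between -0.20 and 0.24, and NUDT19 had 0.67 (adjusted P = 0.0559). Whether each product on this list, NUDT16L1 among them, hydrolyzes caps was not tested.

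Of 16 RNA-binding proteins that bring mRNAs to this machinery, all were tested, and 5 rose and 2 fell. The share called, 43.8%, was close to the 39.8% of all tested genes (20.0% higher and 19.8% lower). ZFP36 (2.78) and ZFP36L2 (1.81), which bind AU-rich elements, the Pumilio protein PUM2 (0.58), and AGO3 (0.69) and TNRC6C (0.98) of the microRNA pathway rose. AGO1 (-0.50) and the cap-binding repressor EIF4E2 (-0.54) fell. Only for PUM2 did the groups not overlap, with 45.1 to 67.9 CPM in uninduced and 76.9 to 103 CPM in induced libraries. Groups without overlap were found for 7.30% of all tested genes. With GC offsets PUM2 had 0.20 (adjusted P = 0.201) and AGO3 0.24 (adjusted P = 0.271) and lost their calls, and the other 5 kept theirs. ZFP36 was low, at most 5.21 CPM in any of these libraries. ZFP36L2 and TNRC6C passed with any library left out, whereas AGO1 and EIF4E2 lost their calls in 8 of 10 fits, AGO3 in 7, PUM2 in 3 (without uninduced library 2 or induced library 1 or 3) and ZFP36 without induced library 1. In parental cells no gene of the 3 lists was called (13, 6 and 14 tested), and the difference between the lines was called only for PNRC1. Parental groups did not overlap for PNRC1 (-2.14), ZFP36L1 (-1.26) and TNRC6A (-0.75), lower with doxycycline, and for NBDY (0.86), higher. Such groups were found for 9.52% of all genes tested in parental cells (4.87% higher and 4.66% lower).

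**Figure D5:**
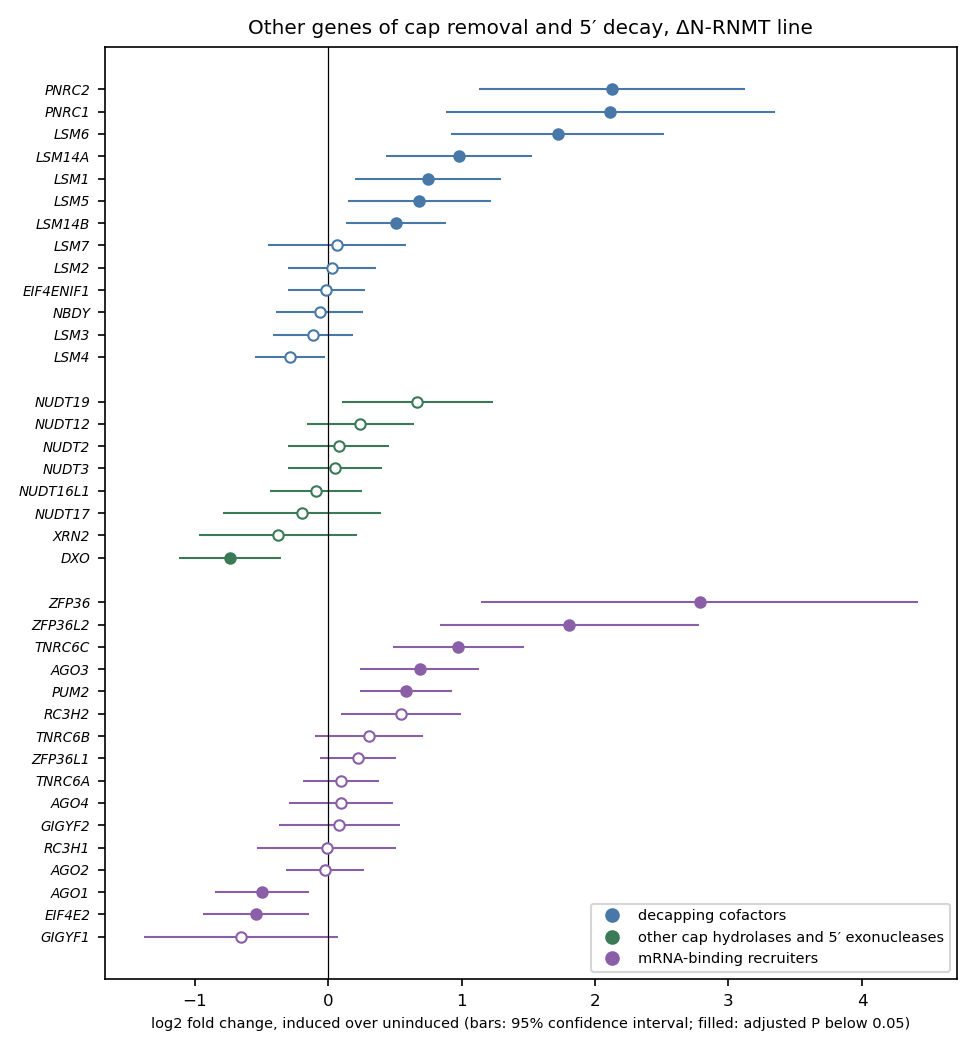
Log2 fold changes, induced over uninduced, with 95% confidence intervals for the tested cofactors of decapping (blue), other cap hydrolases and 5′ exonucleases (green) and mRNA-binding recruiters (purple). Filled circles had an adjusted P below 0.05: 7 of 13 cofactors, all higher, 1 of 8 hydrolases and exonucleases, lower, and 5 higher and 2 lower of 16 recruiters. Of all tested genes, 39.8% were called.

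Levels in the untreated groups of the lines are given side by side, since line and sequencing run cannot be told apart. DCP1A had 7.46 ± 1.32 CPM (SD, n = 5) in uninduced cells of the transgene line and 32.0 ± 3.74 CPM (SD, n = 3) in untreated parental cells. PATL1 had 25.5 ± 14.9 and 65.8 ± 5.53 CPM in these groups, DCP2 37.4 ± 1.92 and 69.8 ± 22.3 CPM, and EDC3 10.5 ± 1.83 and 21.2 ± 6.09 CPM. NUDT16 had 34.1 ± 8.06 and 18.9 ± 6.52 CPM. XRN1 (8.45 and 11.4 CPM) and DCP1B (19.2 and 16.6 CPM) had overlapping ranges. Tags outside genes numbered 0.0744 to 0.106 per gene count in the transgene line and 1.11 to 1.497 in the parental line, and their part in these levels was not tested. DDX6 was the most abundant member in all 4 groups, and XRN1 was among the 3 least abundant of the 9 in each.

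The members did not vary as 1 group from library to library. Over the 10 libraries of the transgene line, with each group's mean removed, the 36 pairs of the 9 tested genes had a median correlation of log2 values of -0.11, and 14 of the 36 were positive. The extremes were 0.88 for DCP1B with DCPS and -0.87 for DCP1B with NUDT16. By rank correlation these pairs had 0.79 and -0.71. All 10 points of a pair share the scaling and depth of their libraries, and these values are a description.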

How the data were processed

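Cytoplasmic RNA was profiled by 3′ tag sequencing in 16 libraries. The authors deposited raw tag counts for each Ensembl gene from Lexogen's QuantSeq REV pipeline on GRCh38; aligner, annotation release and strand use are not given in the sources used here. Entries that are not genes stayed out of library sizes and tests; tags set aside as ambiguous numbered 0.0117 to 0.0195 per gene count. Names and coordinates came from GENCODE release 44, which matched 56104 of 60107 gene entries, and RefSeq starts from GRCh38.p14. Groups follow the library titles. The study calls the 5 libraries per group of the transgene line biological replicates and made the 3 per group of the parental line from separate cultures.

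Counts with a base mean above 20 in the libraries compared were scaled with TMM and tested with edgeR 4.0.16 in R 4.3.3 (quasi-likelihood test, Benjamini-Hochberg adjustment over all tested genes, calls at an adjusted P below 0.05). The standard error is the log2 fold change over the square root of F. Chi-square over its degrees of freedom was at least 4.55 for every pair of libraries in a group, so none was taken as a duplicate. The procedure was tested on simulated counts. A few items of the lists and of the start sequences are not reported here. Alternatives were DESeq2 1.42.0, its size factors, total counts, filterByExpr, no filter, GC offsets (lowess span 0.5), 1 surrogate variable (sva 3.50.0), the replicate number as a block with and without GC offsets, and each library left out. Figures used Python 3.11.15 and matplotlib 3.10.9. The members, the gene lists and the tests were chosen with earlier results of these data known. All 10 members were described; genes of the other lists were named where called, where they complete a complex or family, or where their groups did not overlap.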

Additional observations from a re-analysis of the deposited data

Results flagged for a closer look

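In 7 of the 52 groups of 5 libraries examined (26 genes), 1 library lay far from the others by Dixon's test at 95%, where chance gives about 1 in 20. Among the members these were DCP2 in induced library 5 (31.6 CPM), PATL1 in uninduced library 5 (51.6 CPM) and DDX6 in uninduced library 3 (85.4 CPM). Among the other lists they were PNRC1 (5.97 CPM) and PNRC2 (12.1 CPM) in uninduced library 5, and EIF4E2 (285 CPM) and DXO (12.3 CPM) in induced library 2.

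The response differed between the lines, by the interaction term of the edgeR fit, for PNRC1 by 4.05 on the log2 scale (adjusted P = 0.0433), for RNMT by 2.43 (adjusted P = 0.0258) and, among the marks of cells and nuclei, for MALAT1 by 2.37 (adjusted P = 0.0405). PNRC1 had 32.98, 25.0 and 15.5 CPM in untreated and 1.74, 12.4 and 1.59 CPM in doxycycline-treated parental libraries, without overlap, and its call was lost in 12 of 16 fits with a library left out, with adjusted P up to 0.141. The call for RNMT was lost in 8 of those 16 fits, with adjusted P up to 0.124.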

How the results depend on the processing

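XRN1 and EDC3 kept their direction in the transgene line under every alternative run, and so did PATL1. The 3 members called became 4 with the replicate number as a block (DCPS added at 1.71, adjusted P = 0.0268), 3 with block and GC offsets (DCPS, PATL1 and DCP2), 2 with GC offsets (1 shared, EDC3), 3 with total counts (2 shared), and 0 with a surrogate variable, which also left 0 cofactors, 0 hydrolases and 0 recruiters and 1 gene of 13038 called. In that fit XRN1 had 0.62 (adjusted P = 0.0653). Against 7 recruiters called in the main setting, 5 were called with no filter, with GC offsets and with block and GC offsets. Against 1 hydrolase, 2 were called with DESeq2 (NUDT19 added), 2 with total counts and 0 with block and GC offsets. Whether same-numbered libraries were grown together is not stated. Correlations of same-numbered deviations ran from -0.37 to 0.63 in the transgene line, and 1 of 5 libraries was closest to its own number. With 5 libraries per group these values cannot settle whether the numbers pair the cultures. The block gave 6 cofactors, 1 hydrolase, 7 recruiters and 5190 genes called. Over all genes, GC offsets left 3465 called and leaving out a library 1869 to 7604. With 1 library left out, members called ranged from 1 to 4 (1 without uninduced library 2 or induced library 1, 3 or 4), parental members from 0 to 0, members that differed between lines from 0 to 1 (DCPS at 2.54 without uninduced library 5, XRN1 at 1.26 without doxycycline parental library 2), cofactors from 4 to 7, hydrolases from 1 to 2 (2 without uninduced library 5 or induced library 2) and recruiters from 2 to 9.

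Of the named genes' values in the transgene line under the alternatives that kept all libraries, 176 kept direction and call, 40 lost their call, 3 gained one and 6 changed sign. The sign turned, for values not called in the main fit, as follows. In the transgene line, DCP2 was -0.45 with GC offsets and -0.45 with block and GC offsets, DDX6 was -0.23, -0.21 with the block added and -0.10 with the surrogate variable, DCP1B was -0.020 with the surrogate variable, and DDX6 ran from -0.039 to 0.22 with a library left out. In parental cells DCP1B was -0.081 with total counts and -0.028 with the surrogate variable, and NUDT16 was 0.0049 with no filter. With a library left out there, DCP1B ran from -0.16 to 0.38, DCPS from -1.11 to 0.21, DDX6 from -0.22 to 0.023, NUDT16 from -0.30 to 0.20 and PATL1 from -0.58 to 0.34. For the difference between lines, total counts gave DCP1A 0.092, DCP1B 0.49, EDC3 0.24 and NUDT16 0.056; DCP1B was 0.013 with DESeq2 size factors, 0.090 with filterByExpr, 0.11 with no filter and 0.087 with GC offsets; DDX6 was -0.21 with GC offsets. With a library left out, DCP1A ran from -0.81 to 0.17, DCP1B from -0.21 to 0.28, DDX6 from -0.080 to 0.39 and EDC3 from -0.74 to 0.080. The cause of these changes was not tested. Parental depth limited all comparisons with that line.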
